A study of Mus musculus with 7 samples.

Results

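The promoters of the Zbtb genes were examined for DNaseI accessibility in cultured mouse podocytes kept in normal glucose, in high glucose, or in high glucose with a miR-93 mimic. Members were the protein-coding genes of chromosomes 1 to 19 whose symbol starts with Zbtb and a number (GENCODE vM21 on GRCm38, the mm10 build of the data). This rule gave 40 of 21853 protein-coding genes, with 131 transcription start sites (TSSs). The members were chosen by symbol, and the family was selected on the fold percentiles of *Zbtb7a*, whose swing between the conditions was already known. All fold percentiles below, and the fragment counts solved from the same folds, are therefore a description. *Zbtb33* lies on chromosome X and was not a member.

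DNase-Seq was performed on a conditionally immortalised podocyte line, the epithelial cell of the glomerular filter. The line is driven by a temperature-sensitive T antigen and was differentiated before use. All cells were growth arrested in medium with reduced serum before 36 h of treatment. Normal glucose (NG) was 5 mM and high glucose 25 mM. High glucose was combined with a mimic at 50 nM, which was either non-targeting (HG+NT) or miR-93 itself (HG+miR-93). The NG cells received no mimic according to the labels, so that glucose and transfection differ together between NG and HG+NT and cannot be told apart. Each condition had 2 replicates, and 1 genomic DNA sample digested with less DNaseI served as input. The deposited data are 1 joint list of peaks per condition. Hence no spread between replicates was available, no test between conditions was run, and intervals below cover counting error only.

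Zbtb proteins carry a BTB domain at one end and C2H2 zinc fingers at the other. The BTB domain forms dimers and recruits corepressors such as NCoR and histone deacetylases, or the ubiquitin ligase scaffold Cul3, while the zinc fingers bind DNA. Many members are repressors that fix a choice of cell lineage, above all in lymphocytes, and others act in the brain, in muscle, at telomeres or on methylated DNA. *Zbtb8os* is named for its position on the opposite strand of a Zbtb gene and encodes a factor of tRNA ligation, not a zinc finger protein.

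The sequences at 5 members are windows at or near the peaks described below, and do not always hold the summits of the strongest peaks by fold. Every such summit lay inside the stretch at *Zbtb5* and, at its very start, at *Zbtb14*. That of *Zbtb7a* held only the HG+NT summit. At *Zbtb18* only the NG summit lay inside, and at *Zbtb41* only the HG+miR-93 summit. GC boxes (GGGCGG, read on both strands) and CCAAT boxes (CCAAT, both strands) are in capitals. The first is the stretch around the HG+NT summit of *Zbtb7a*, the member with the widest swing. The second is the first promoter of *Zbtb18*, which came next to it in the upward step to HG+NT and in the downward step to HG+miR-93. The next pair belongs to *Zbtb14* and *Zbtb5*, whose summits were fixed to a few bases in all lists, and the last to *Zbtb41*, the lowest member by fold. The *Zbtb7a* stretch was read from GRCm38.p6 and the others are RefSeq promoters of the same assembly, each from 250 bases before to 50 after a start, 5′ to 3′ on the strand of the gene.
Zbtb7a chr10:81137400-81137699, plus strand: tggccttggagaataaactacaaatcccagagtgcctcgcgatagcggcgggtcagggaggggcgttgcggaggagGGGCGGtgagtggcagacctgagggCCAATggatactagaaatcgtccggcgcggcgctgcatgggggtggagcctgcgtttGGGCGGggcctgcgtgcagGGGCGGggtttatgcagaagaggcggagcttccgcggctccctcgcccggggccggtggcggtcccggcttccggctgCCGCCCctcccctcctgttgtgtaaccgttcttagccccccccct
Zbtb18 chr1:177442101-177442400, plus strand: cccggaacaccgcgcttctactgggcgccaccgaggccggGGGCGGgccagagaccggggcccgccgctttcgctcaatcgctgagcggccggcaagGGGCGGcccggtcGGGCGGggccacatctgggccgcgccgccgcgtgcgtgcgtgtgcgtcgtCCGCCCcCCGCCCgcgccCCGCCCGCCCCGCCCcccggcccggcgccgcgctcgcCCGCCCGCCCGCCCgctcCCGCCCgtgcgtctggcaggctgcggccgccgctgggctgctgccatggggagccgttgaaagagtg
Zbtb14 chr17:69382925-69383224, plus strand: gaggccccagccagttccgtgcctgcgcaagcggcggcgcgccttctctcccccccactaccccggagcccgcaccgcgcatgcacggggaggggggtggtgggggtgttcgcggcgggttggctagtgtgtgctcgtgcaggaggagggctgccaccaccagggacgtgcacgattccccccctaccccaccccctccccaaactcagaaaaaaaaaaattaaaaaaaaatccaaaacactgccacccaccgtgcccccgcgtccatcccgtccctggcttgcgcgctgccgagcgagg
Zbtb5 chr4:45012363-45012662, minus strand: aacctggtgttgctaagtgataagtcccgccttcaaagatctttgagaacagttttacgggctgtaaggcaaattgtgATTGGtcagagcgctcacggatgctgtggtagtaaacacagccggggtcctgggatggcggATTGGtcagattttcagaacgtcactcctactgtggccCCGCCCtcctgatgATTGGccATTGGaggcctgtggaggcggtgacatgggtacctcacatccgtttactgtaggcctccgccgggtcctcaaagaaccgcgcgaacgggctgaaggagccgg
Zbtb41 chr1:139422133-139422432, plus strand: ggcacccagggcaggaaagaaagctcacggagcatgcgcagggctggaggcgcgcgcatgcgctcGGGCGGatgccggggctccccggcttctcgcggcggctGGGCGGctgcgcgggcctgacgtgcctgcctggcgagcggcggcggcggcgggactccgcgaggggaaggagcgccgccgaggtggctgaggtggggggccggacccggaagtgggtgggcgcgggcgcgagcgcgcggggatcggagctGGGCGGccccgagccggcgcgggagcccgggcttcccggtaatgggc

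The *Zbtb7a* stretch held 4 GC boxes, 1 CCAAT box and 27 CpG dinucleotides, and lay in an intron of the gene, upstream of an alternative TSS. The *Zbtb18* promoter held 12 GC boxes, partly overlapping, and 51 CpGs. That of *Zbtb5* held 4 CCAAT boxes and 1 GC box, and that of *Zbtb14* held neither, with 25 CpGs. That of *Zbtb41* held 3 GC boxes and 45 CpGs. RefSeq promoters were found for 35 of the 40 members, 48 in all. A GC box was present in 33 of these 48 (68.8%), against 35.7% of all 32851 RefSeq promoters, which were not matched for G+C content. The CCAAT box was present in 15 (31.3% against 37.4%), the TATA box (TATAAA) in 6 (12.5% against 13.6%) and the cyclic AMP element (TGACGTCA) in 2 (4.17% against 1.79%). The AP-1 motif (TGACTCA) was found in 1 (2.08% against 5.20%), the E-box (CACGTG) in 6 (12.5% against 7.15%) and the Kaiso motif (TCCTGCNA) in 4 (8.33% against 4.96%), all on both strands. Promoters of 1 gene can overlap and share a match, so the 48 are not separate units. Of the 35 genes, 27 held a GC box, 14 a CCAAT box and 3 a TATA box. The cyclic AMP element was found in 2 genes, the AP-1 motif in 1, the E-box in 5 and the Kaiso motif in 2. These letter matches describe the windows and are not binding sites.

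Throughout, values are in the order NG, HG+NT, HG+miR-93. The lists were permissive, with 1036304, 846027 and 900109 peaks, and took in peaks with p up to 0.90. Few peaks (73, 94 and 1) had a −log10 q above or equal to 2, none of them at a Zbtb promoter. The depth was 2.24, 3.85 and 5.15 times that of the input, and the later lists had 1.72 and 2.30 times the fragments of NG. Of 4 podocyte marker genes (*Nphs1*, *Synpo*, *Podxl*, *Cd2ap*), the median promoter percentile by pileup was 56.5, 61.4 and 60.1, beside 47.5, 49.3 and 55.1 for 4 tubule, 43.4, 40.2 and 44.5 for 3 endothelial, 30.6, 59.8 and 44.5 for 2 mesangial and 25.8, 30.4 and 29.0 for 2 leucocyte markers. By fold the podocyte median was 67.6, 68.3 and 67.8, against 36.7, 82.6 and 82.0 for the mesangial markers. The podocyte list was thus the highest in each list of peaks by pileup but not by fold. Its members differed by pileup: *Nphs1* had 31.2, 40.2 and 44.5 and *Podxl* 51.5, 49.4 and 55.4. *Synpo* had 61.6, 73.3 and 64.8 and *Cd2ap* 68.3, 90.7 and 72.4. So few genes do not settle the labelled cell type.

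Each promoter was the 500 nt on either side of a protein-coding TSS, and its value was the strongest peak that overlapped it by at least 1 bp. The fold of a peak is (pileup + 1)/(input + 1), where the pileup is the number of fragments at the summit scaled to the input's depth and the input is its local mean in fragments. Both terms were solved from the listed fold and p, with exactly 1 solution for every member in every list. Folds were then expressed as percentiles among the 21835 protein-coding genes with a promoter peak in all lists. All 40 Zbtb genes had one, through 79, 81 and 82 peaks. At the edge of the window, the smallest overlaps counted were 35 bp in NG (*Zbtb43*, fold 1.08), 4 bp in HG+NT (*Zbtb44*, fold 1.29) and 17 bp in HG+miR-93 (*Zbtb48*, fold 0.948). The nearest peaks not counted lay 53 bp (*Zbtb17*, fold 0.929), 4 bp (*Zbtb17*, fold 1.11) and 93 bp (*Zbtb8a*, fold 1.09) outside it.

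As a group, Zbtb promoters ranked above the middle of all genes in each list, more evenly by pileup than by fold. Their median percentile by fold was 72.0, 69.7 and 59.7, against 50.9, 49.9 and 49.8 over all genes. By pileup it was 73.3, 69.9 and 70.1, and 35, 33 and 29 of the 40 lay above percentile 50. The median of the highest scaled pileup was 8.71, 6.62 and 6.22 fragments, against 5.81, 4.93 and 4.86 over all genes. Behind the strongest peak of a member stood 7 to 35, 11 to 69 and 13 to 88 fragments, and the input's local mean there ran from 1.43, its genome background, to 9, 8 and 10. A −log10 q above 0 was reached in HG+NT alone, at *Zbtb14* (0.89), *Zbtb7a* (0.33) and *Zbtb2* (0.0828), which are 7.5% of the members. Of all genes, 1.84%, 2.2% and 0.110% had a −log10 q above 0 in the 3 lists.

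**Figure D1:**
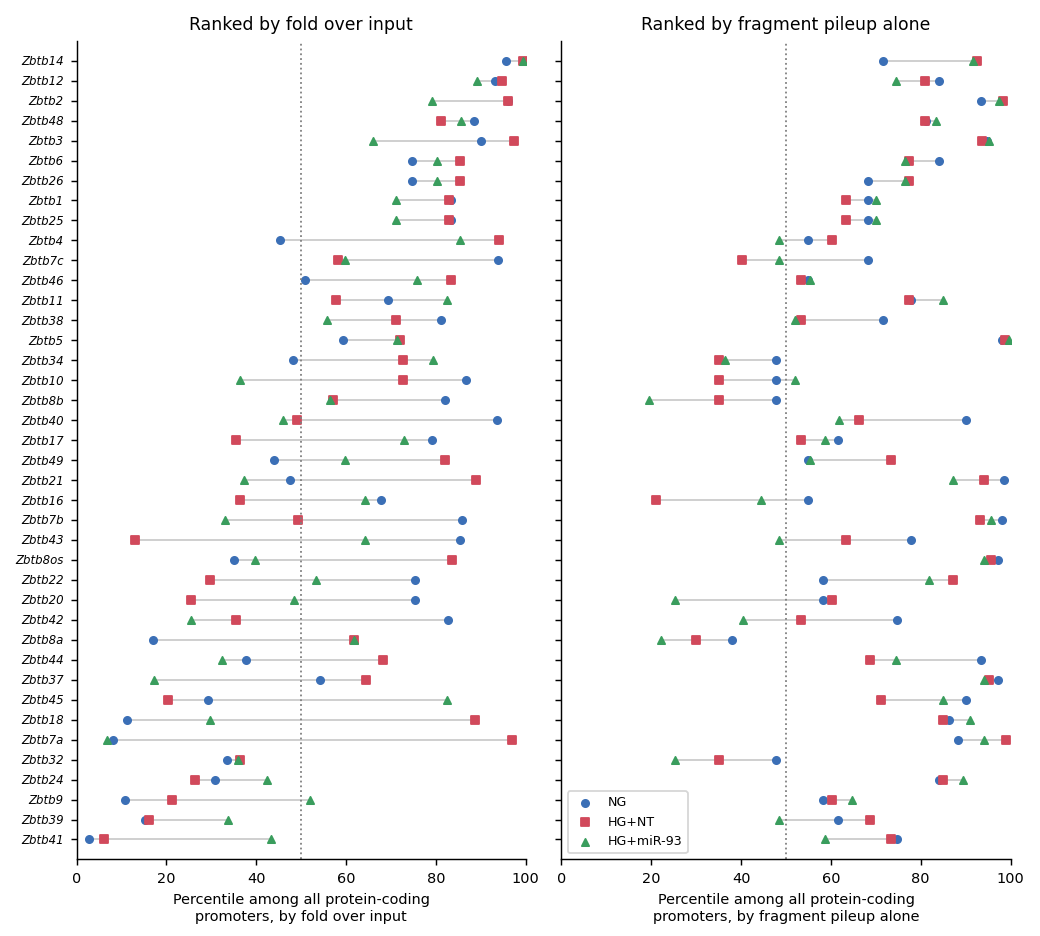
Percentile of each of the 40 Zbtb promoters among all protein-coding promoters, ranked by fold over input (left) or by scaled pileup (right); each row is a gene, ordered by its mean percentile by fold, the symbols are the 3 joint lists and the dotted line is percentile 50. The symbols of a gene spread over a median of 35.9 points by fold and 11.6 by pileup.

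CpG content differed between Zbtb genes and all genes. In the 1001 nt around the TSSs the median G+C content was 62.0% against 54.3%, and the ratio of observed to expected CpG was 0.715 against 0.503. Both are means over the TSSs of a gene, whereas its pileup is the highest at any of them. A ratio of at least 0.6 was found for 28 of the 40 (70%) and for 38.7% of all genes. Within that class the Zbtb promoters had median percentiles by pileup of 71.7, 69.9 and 67.4, close to the 71.7, 71.1 and 72.4 of all 8454 genes of the class. The other 12 members, with a lower mean ratio, had 84.0, 73.1 and 74.5, where the 13381 genes of that class had 31.2, 35.1 and 32.4. A low mean can include a CpG-rich promoter beside CpG-poor ones, as at *Zbtb18*. These values therefore do not describe CpG-poor promoters alone. The lowest ratios belonged to *Zbtb32* (0.240) and *Zbtb20* (0.251), and the highest to *Zbtb10* (1.01) and *Zbtb14* (0.969).

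**Figure D2:**
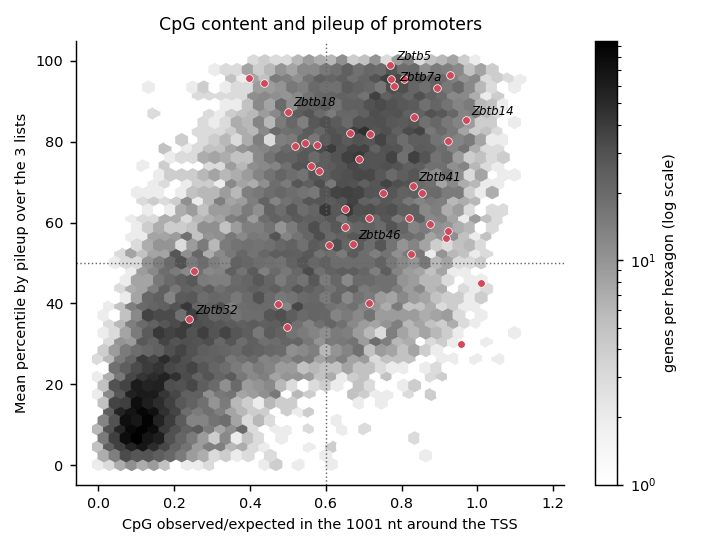
Ratio of observed to expected CpG in the 1001 nt around the TSS, as a mean over the TSSs of a gene (x), against the mean percentile by pileup over the 3 lists (y). The 40 Zbtb genes are in red over all 21835 genes (grey, genes per hexagon on a log scale). Dotted lines mark a ratio of 0.6 and percentile 50. Of the Zbtb genes, 28 lie to the right of 0.6.

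In 6 of the 40 (15%, against 9.86% of all genes) the TSS lay within 1000 nt of that of a gene on the other strand, head to head. *Zbtb1* and *Zbtb25* face each other across 664 nt, *Zbtb26* and *Zbtb6* are each paired with *Rabgap1* (158 and 108 nt), *Zbtb49* with *Lyar* (13 nt) and *Zbtb8os* with *Rbbp4* (325 nt). *Zbtb1* and *Zbtb25* shared their strongest peak in every list, as did *Zbtb6* and *Zbtb26*, so the 40 values of a list rest on 38 peaks. The members were spread over the chromosomes, with 7 on chromosome 4 and 5 on chromosome 2. On chromosomes 8, 15 and 19 promoters as a whole were higher in HG+NT than in NG, by medians of 11.7, 15 and 8.84 points. Of the members only *Zbtb3* lies there, on 19, with percentiles of 90.2, 97.5 and 65.9.

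From NG to HG+NT the median change of the Zbtb promoters was 1.27 percentile points (95% order-statistic interval over the members −8.96 to 10.4) and that of all genes 0.0916. The interval is that of the median and not the range of the members, whose changes ran from −72.4 (*Zbtb43*) to 88.8 (*Zbtb7a*). It holds no replicate error, so it cannot show whether the group shifted. Up by 25 points or more were 9 members, where all genes gave 20%, and down as far were also 9 (20.3%), 18 in either direction (40.3%). These shares of the 40 were close to those of all genes.

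From HG+NT to HG+miR-93 the median change was −4.15 points (−11.7 to 1.48), against 0.0321 over all genes. Here 6 members were up by 25 points or more (all genes 16.1%) and 8 down (16%), 14 together (32.0%). Between NG and HG+miR-93 it was −3.38 points (−12.1 to 5.67), with 6 up (21.2%), 9 down (21.1%) and 15 in either direction (42.3%). Since HG+NT is the end of one step and the start of the other, a member whose HG+NT value is extreme moves in both.

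By pileup few members moved. From NG to HG+NT 1 was up (*Zbtb22*; 6.98% of all genes) and 2 were down (*Zbtb16* and *Zbtb7c*; 6.20%), in the step to HG+miR-93 none was up (3%) and 1 was down (*Zbtb20*; 2.91%). Between the outer lists, NG and HG+miR-93, none was up (7.01%) and 5 were down (*Zbtb20*, *Zbtb40*, *Zbtb42*, *Zbtb43* and *Zbtb8b*; 6.81%). The direction by fold and by pileup was opposite for 16, 15 and 17 of the 40 in these comparisons (40%, 37.5% and 42.5%, against 26.6%, 30.6% and 28.0% over all genes). Across the 40 members, Spearman's rho between lists was 0.242 (NG and HG+NT), 0.304 (HG+NT and HG+miR-93) and 0.370 (NG and HG+miR-93) by fold. By pileup it was 0.805, 0.919 and 0.816. The points share the input library and, in 2 pairs, a peak. Over all genes rho was 0.413, 0.566 and 0.386 by fold, and 0.827, 0.903 and 0.822 by pileup.

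**Figure D3:**
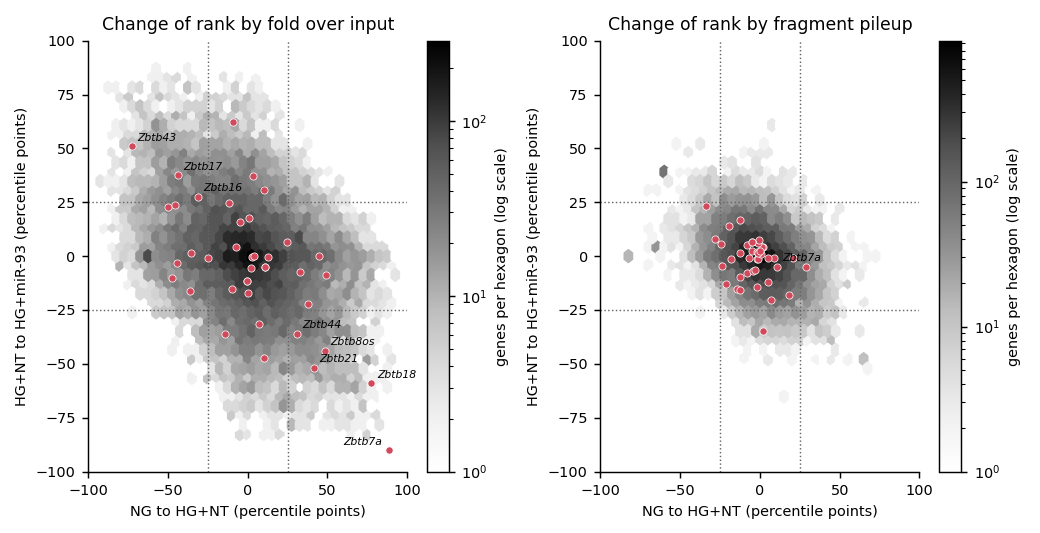
Change of percentile from NG to HG+NT (x) against that from HG+NT to HG+miR-93 (y), by fold (left) and by pileup (right), for the 40 Zbtb genes (red) over all genes (grey, log scale); dotted lines mark 25 points. By fold 8 members lie in the outer upper left or lower right fields, and by pileup none.

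By 25 points or more in both steps and in opposite directions moved 8 of the 40, where all genes gave 13.8%. Up and then down were 5 (*Zbtb7a*, *Zbtb18*, *Zbtb21*, *Zbtb8os*, *Zbtb44*; 6.57% of all genes), and down and then up were 3 (*Zbtb43*, *Zbtb17*, *Zbtb16*; 7.18%). HG+NT gave the highest or lowest of the 3 percentiles at 27 of the 40 (67.5%, against 62.0% of all genes), NG at 30 (75% against 73.1%) and HG+miR-93 at 23 (57.5% against 64.9%).

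*Zbtb7a*, a repressor of fetal globin genes and of lymphoid lineage choice, spans chr10:81135220-81152995 on the plus strand and has 6 TSSs. Its fold was 1.22, 3.05 and 0.992, the percentiles 8.05, 96.9 and 6.86. The strongest peak held 25, 69 and 51 fragments, or 11.2 (7.23 to 16.5), 17.9 (13.9 to 22.7) and 9.91 (7.38 to 13.0) after scaling, with exact Poisson intervals. The HG+NT interval lay above that of HG+miR-93 and overlapped that of NG. The pileups were solved from the folds that served to select the family, so this gap is no separate support. No other member had intervals apart between any pair of lists. Of all genes, 0.362% had an interval in HG+miR-93 below that of HG+NT and 0.0962% above it, 1.01% had one in HG+NT below that of NG and 0.234% above it, and 1.32% had one in HG+miR-93 below that of NG and 0.119% above it. By pileup *Zbtb7a* was high in each list, at percentiles 88.3, 98.9 and 94.1. The input's local mean was 9 at the NG summit, 5.2 at the HG+NT summit and 10 at the HG+miR-93 summit, which lay 94, 403 and 240 nt upstream of the alternative TSS. On the log2 scale the fold was higher by 1.33 in HG+NT than in NG, of which 0.64 came from the pileup term and 0.69 from the input term. In HG+miR-93 it was −1.62 relative to HG+NT, in parts of −0.79 and −0.83. Because 1 input library stands behind all lists, the input term depends on where the summit was placed.

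*Zbtb18*, a repressor needed for neuronal differentiation, had percentiles by fold of 11.3, 88.8 and 29.8, with folds of 1.30, 2.48 and 1.42. Its highest scaled pileup was 10.7 (6.87 to 15.9), 8.83 (6.11 to 12.3) and 8.94 (6.54 to 11.9), percentiles 86.3, 85.0 and 91.0, so that the intervals overlapped throughout. The strongest peak by fold changed place. Its summit lay outside the gene in NG and HG+miR-93, 216 and 380 nt upstream of the TSS of the promoter printed above, and within an intron in HG+NT, 1238 nt downstream of it. There the input's local mean was 2.02, against 8 and 6 at the other summits.

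For *Zbtb21* the percentiles were 47.6, 89.0 and 37.2 by fold and 98.5, 94.1 and 87.3 by pileup, and the input was 8, 4.2 and 5. *Zbtb8os* had 35.1, 83.6 and 39.7 by fold and 97.1, 95.6 and 94.1 by pileup, with an input of 8, 5 and 6. In both, the summits lay within 300 nt of each other, and the scaled pileup was highest in NG. At *Zbtb44* (37.7, 68.3 and 32.3) the strongest peaks by fold held only 7, 15 and 13 fragments, at the background input of 1.43, with summits spread over 2835 nt.

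*Zbtb43* went the other way, with percentiles by fold of 85.5, 13.1 and 64.1 and folds of 2.59, 1.16 and 1.89. Its highest scaled pileup was 9.38 (5.81 to 14.3), 5.97 (3.79 to 8.96) and 4.86 (3.14 to 7.17), lower in each list than in the one before, with overlapping intervals. The input at these peaks was 3, 5 and 5. In HG+miR-93 the strongest peak by fold was another one, with a scaled pileup of 4.66 over an input of 2. *Zbtb17*, which encodes Miz-1, a partner of Myc, had 79.1, 35.5 and 72.9, on 16, 20 and 28 fragments and summits 1, 77 and 120 nt downstream of its only GENCODE TSS. *Zbtb16* (PLZF, which directs innate-like T cells) had 67.8, 36.5 and 64.1 by fold and, alone among these 3, a change of over 25 points by pileup in the first step (55.0, 21.1 and 44.5), on 14, 13 and 24 fragments.

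**Figure D4:**
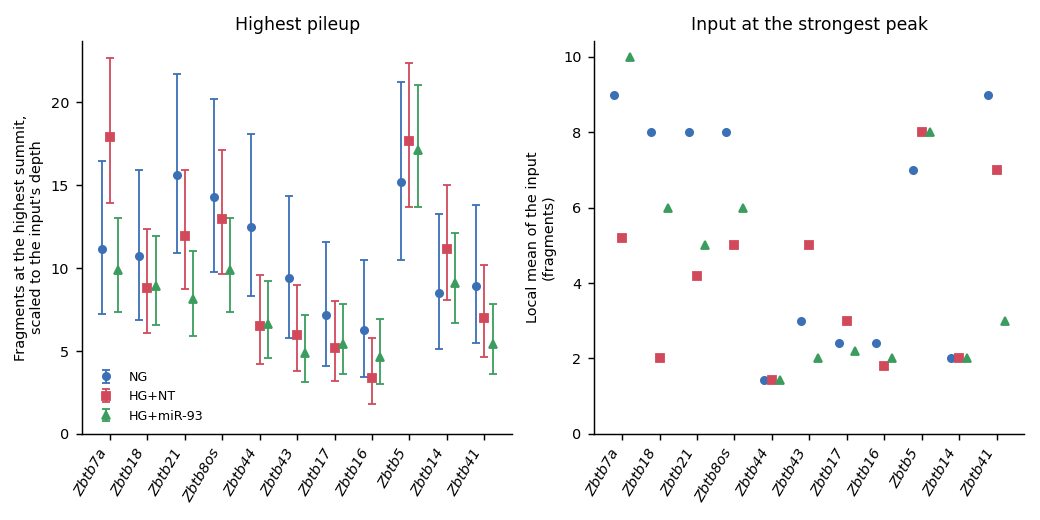
Highest scaled pileup with 95% exact Poisson intervals (left) and the input's local mean at the strongest peak by fold (right), both in fragments, for the 8 members with opposite steps and for *Zbtb5*, *Zbtb14* and *Zbtb41*; symbols are the joint lists. At *Zbtb7a* the HG+NT interval lies above that of HG+miR-93, and at *Zbtb14* the input is 2 in each list.

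Other members had a wide step but did not reach 25 points in the opposite direction in the other step. From NG to HG+NT *Zbtb4*, which binds methylated CpG, was 48.8 points higher (45.3, 94.2 and 85.3). Lower were *Zbtb20*, known in hippocampus and liver (75.3, 25.4 and 48.4), and *Zbtb42*, known in muscle (82.8, 35.5 and 25.5). The summits were spread over 9176 nt at *Zbtb4*, 1198 nt at *Zbtb20* and 7412 nt at *Zbtb42*, so these percentiles compare different positions. In the second step *Zbtb45*, a regulator of glial differentiation, had the largest upward step of the family (29.2, 20.3 and 82.5), with an input of 7, 5 and 3 and scaled pileups of 11.6 (7.59 to 17.0), 6.75 (4.41 to 9.89) and 7.77 (5.55 to 10.6). The pileup intervals of these 4 genes overlapped in every pair of lists.

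At the top by mean percentile stood *Zbtb14*, *Zbtb12* and *Zbtb2*. *Zbtb14*, a GC-rich element binder that represses *Myc*, had folds of 3.16, 4.06 and 3.38 and percentiles of 95.6, 99.4 and 99.4. Its summits fell within 5 nt of each other, inside the printed promoter, 247, 244 and 249 nt upstream of the RefSeq TSS. The scaled pileup was 8.49 (5.11 to 13.3), 11.2 (8.08 to 15) and 9.13 (6.71 to 12.1), over an input of 2 in each list. *Zbtb12* had percentiles of 93.1, 94.8 and 89.2, and *Zbtb2*, a repressor in the p53 pathway, 96.1, 96.1 and 79.2.

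*Zbtb5*, a repressor of the p21 gene *Cdkn1a*, was the highest member by mean percentile of pileup, with 34, 68 and 88 fragments. Its scaled pileup was 15.2 (10.5 to 21.2), 17.7 (13.7 to 22.4) and 17.1 (13.7 to 21.1), percentiles 98.2, 98.8 and 99.7. By fold it ranked only at 59.4, 72.0 and 71.5, over an input of 7, 8 and 8. The summits lay 56, 46 and 52 nt upstream of the TSS, among the CCAAT boxes printed above.

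The lowest by mean percentile were *Zbtb41* (2.70, 6.06 and 43.4), *Zbtb39* (15.2, 16 and 33.7) and *Zbtb9* (10.8, 21.2 and 52.0). None was low by pileup. *Zbtb41* had 8.93 (5.46 to 13.8), 7.01 (4.62 to 10.2) and 5.44 (3.62 to 7.86) scaled fragments, percentiles 74.8, 73.3 and 58.7, over an input of 9, 7 and 3. Its summits lay 278, 210 and 111 nt upstream of the nearest GENCODE TSS. From the RefSeq TSS of the promoter printed above they lay 373, 305 and 206 nt upstream.

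The remaining members are given by their percentiles by fold. *Zbtb7b* (ThPOK, which fixes the CD4 T-cell fate) had 85.8, 49.4 and 33.2, although by pileup it stayed at 98.2, 93.2 and 95.7. *Zbtb46*, a marker of classical dendritic cells, had 50.9, 83.4 and 75.9, with summits spread over 35387 nt. Higher in NG than in both later lists were *Zbtb40* (93.7, 49.2 and 45.9), *Zbtb7c* (94.0, 58.2 and 59.7) and *Zbtb8b* (82.0, 57.1 and 56.5). So was *Zbtb22* (75.3, 29.7 and 53.4), but by pileup it was lowest in NG (58.3, 87.1 and 82.0). The summits were spread over 57064 nt at *Zbtb40* and 5063 nt at *Zbtb22*. Lower by fold in NG were *Zbtb8a* (17.1, 61.8 and 61.8), *Zbtb34* (48.1, 72.6 and 79.3) and *Zbtb49* (44.0, 82.0 and 59.7). At these genes the percentiles by pileup spread over only 15.7, 12.7 and 18.3 points, and by that measure *Zbtb34* was highest in NG. Their summits were spread over 1388, 750 and 3096 nt. *Zbtb37* was low in HG+miR-93 (54.2, 64.5 and 17.1) but not by pileup (97.1, 95.2 and 94.1), over an input of 7, 6 and 8. *Zbtb11* had 69.4, 57.8 and 82.5, the pair of *Zbtb6* and *Zbtb26* 74.7, 85.4 and 80.3, and *Zbtb25* the values of *Zbtb1*.

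The stability of a percentile varied among members. In 13 of the 40 (32.5%, against 37.0% of all genes) the 3 percentiles by fold lay within less than 25 points, and by pileup in 32 (80% against 77.8%). The narrowest was *Zbtb32*, a T-cell repressor, with 33.5, 36.4 and 36.0. The summits of the 3 lists lay a median of 735 nt apart, against 1358 nt over all genes, and within 500 nt in 19 of the 40 (47.5% against 34.6%). Of these 19, 4 moved in opposite directions in both steps (21.1%, against 13.3% of such genes in all), *Zbtb7a* among them. Strongest summits lay outside the gene in 19, 16 and 20 members, in an intron in 14, 13 and 14, in an untranslated exon in 7, 7 and 3, and in a coding exon in none, 4 and 3.

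By role, the 8 blood and immune members had median percentiles of 59.4, 42.9 and 53.3 by fold and 65.0, 58.4 and 64.4 by pileup. Of the 8, 3 were opposite in both steps (*Zbtb7a*, *Zbtb16* and *Zbtb17*), beside 13.8% of all genes. The family was selected on *Zbtb7a*, so this count cannot show an excess. The 8 ran from *Zbtb1*, needed for lymphocyte development (83.3, 82.9 and 71.2), to *Zbtb24* (31.0, 26.4 and 42.5). The latter is mutated in a syndrome of immunodeficiency and centromere instability. The 4 members of the cell cycle and p53 list had the highest medians by pileup among these role lists (90.9, 98.6 and 95.7). This list shares *Zbtb7a* and *Zbtb17* with the blood and immune list. By pileup *Zbtb17* was itself at 61.6, 53.4 and 58.7. The methylated DNA binders *Zbtb4* and *Zbtb38* had medians of 63.3, 82.6 and 70.5 by fold, with 81.3, 71.1 and 55.7 at *Zbtb38*. The summits of *Zbtb38* were spread over 22673 nt. Of the telomere proteins, *Zbtb48* was even (88.6, 81.3 and 85.5). *Zbtb10* was lower by fold in each list than in the one before (86.7, 72.6 and 36.5), but not by pileup (47.8, 35.1 and 52.0). Its input was 1.43, 1.46 and 3, with summits spread over 2061 nt. The 4 genes of brain, liver and muscle development had 52.3, 30.4 and 39.1 by fold and 80.6, 65.7 and 62.7 by pileup.

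Of the same protein family under other symbols, 8 genes (*Bcl6*, *Bcl6b*, *Patz1*, *Gzf1*, *Hic1*, *Hic2*, *Mynn*, *Zfp131*) had medians of 80.9, 79.6 and 79.3 by pileup and 62.9, 46.2 and 67.9 by fold. Of these, 2 moved by 25 points in both steps in opposite directions (*Bcl6b* and *Mynn*), both down and then up (7.18% of all genes). The 10 genes of corepressors and Cul3 ligases that bind BTB domains (*Ncor1*, *Sin3a*, *Sin3b*, *Hdac1* to *Hdac5*, *Cul3*, *Rbx1*) had medians of 85.2, 71.3 and 65.9 by fold and 81.1, 75.4 and 83.4 by pileup, all of them above percentile 50 by pileup in each list. Of these also 2 moved down and then up, *Hdac3* and *Ncor1*, beside the same 7.18%. *Ncor1*, which encodes the corepressor NCoR, had 92.4, 34.1 and 93.3 by fold and 74.8, 60.3 and 74.5 by pileup.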

How the data were processed

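DNase-Seq of 2 replicates in each of 3 conditions and 1 genomic DNA input was analysed from 3 peak lists. Before deposit the authors had used TrimGalore! for trimming, Bowtie for alignment to mm10 and MACS2 for peak calling after removal of duplicates. Versions of Bowtie and MACS2 are not given in the sources used here, and CASAVA 1.8.2 is named in the submitters' processing notes. The deposited fold is a ratio of summit fragments to the input's local mean, each plus 1, and the deposited −log10 p and −log10 q are the authors' MACS2 values. Replicates were joined by the authors before deposit.

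Fragments and input means, in steps of 0.02 or at the background of 1.43, were solved from fold and p. This succeeded for 99.995%, 99.997% and 99.998% of peaks, and was unique for 99.83% or more. When tested on simulated data of 200000 peaks per list, fragments were recovered for 100% of unique solutions. The simulated peaks were drawn from the same equations, so this cannot show whether the deposited lists follow them. TSSs were from GENCODE vM21. Promoters were ranked within each list, and pileups carry 95% exact Poisson intervals, which cover counting error only. At the depth of these lists the median peak held 6, 10 and 12 fragments. Python 3.11.15, numpy 2.4.6, pandas 2.3.3 and scipy 1.17.1 were used.

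The members, gene lists, 25-point limit and tests were chosen with earlier results of these data known. Genes named were those moving by 25 points in both steps in opposite directions, the 3 largest upward and downward steps of each comparison, those with pileup intervals apart, the 3 highest and lowest, *Zbtb8os*, and the highest and lowest of each role list. The other members and the genes of other lists that are named were added after their values were seen. The lists of podocyte markers and of BTB-domain partners each lack 1 gene, which is not reported here. Alternatives were ranking by pileup, by −log10 p or by summed folds, promoters of 1000 nt on either side, summits within 500 nt of a TSS, peaks with −log10 p of at least 1, division by the chromosome's median promoter fold, and leaving out *Zbtb8os*. Chosen after seeing the data was a restriction to genes whose summits lay within 500 nt.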

Additional observations from a re-analysis of the deposited data

How the results depend on the processing

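No paired analysis was possible because each condition is 1 joint list whose columns carry no replicate numbers, and leaving out a replicate could not be run for the same reason. The median changes kept within the interval of the median under each alternative, with 1 exception. From HG+NT to HG+miR-93 with peaks of −log10 p of at least 1, the median was −11.8 over the 23 members left. Some of these medians changed sign. From NG to HG+NT the median was −2.43 by pileup, and from NG to HG+miR-93 it was 0.80 with summed folds, 1.86 with summits within 500 nt of a TSS and 3.86 with summits of the 3 lists within 500 nt. Counts of members moving by 25 points depended on the measure. Ranked by pileup, 3 moved from NG to HG+NT, 1 from HG+NT to HG+miR-93 and 0 in both steps in opposite directions. With summed folds, 10 moved in the first step. With −log10 p of at least 1 the counts were 11, 8 and 4 of 23, and with summits of the 3 lists within 500 nt they were 5, 9 and 4 of 19, in both cases over fewer members.

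Of the 8 genes with opposite steps, some changed direction. By pileup this was so for *Zbtb18* (−1.26 and 5.96 points in the 2 steps), *Zbtb44* (−24.7 and 5.69), *Zbtb21* (−4.39 in the first), *Zbtb8os* (−1.53 in the first) and *Zbtb43* (−15.1 in the second). *Zbtb44* was at −3.61 in the first step by −log10 p, and with summits within 500 nt of a TSS at −14.9 and 4.57, where *Zbtb43* was at −6.65 in the second. With summed folds *Zbtb16* was at 29.0 and −28.1. The cause was not tested. *Zbtb7a* kept its directions under each alternative that gave it a value, with steps of only 10.6 and −4.83 points by pileup. Leaving out *Zbtb8os* and restricting to summits of the lists within 500 nt could not change them, because genes were not ranked again. With peaks of −log10 p of at least 1 *Zbtb7a* had no value. The strongest promoter peak of a member held a median of 18, 23.5 and 29 fragments, and the pileup intervals of all members but *Zbtb7a* overlapped in each pair of lists.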

Other observations

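*Zbtb33*, which encodes the methylated DNA binder Kaiso and lies on chromosome X outside the rule for members, had percentiles by fold of 54.6, 30.9 and 29.4 (order NG, HG+NT, HG+miR-93). Its scaled pileup was 6.70 (3.75 to 11.1), 4.41 (2.57 to 7.07) and 4.66 (2.99 to 6.94) fragments, with overlapping intervals, and percentiles by pileup of 58.3, 40.2 and 44.5.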
